A study of Mus musculus with 2 samples.

Results

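Interferon-stimulated and antigen presentation genes were examined in mouse liver upon fasting and upon feeding. The set was a list of 37 gene symbols, and its members were found as the array probes whose RefSeq transcript carries one of these symbols. Of the 37 genes, 35 had a matched probe, with 45 probes in all among the 39402 probes of the array that were not controls. Mx1 and Mx2, which encode antiviral GTPases, had no matched probe and are not analysed here. The 35 genes compare with 20652 genes named on the array, of which 16346 were measured, meaning that their probe was well above background on at least 1 array.

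Livers came from male C57BL/6J mice, young adults by the study's methods, and total RNA of 3 mice was pooled for each group and hybridised to an Agilent oligonucleotide array with 1 dye (Cy3). The fasting mice went without food for 16 h by one label and for 14 to 16 h by another. For the feeding mice, the labels speak in one place of unrestricted food and in another of food given once the fast had ended, so the time since the last meal is not given. There was 1 array per group, a pool of 3 mice on each, so differences between the groups have no replicate check and carry no test, p-value or standard error.

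Interferons are cytokines that are released when sensors inside a cell meet foreign nucleic acid. Type I interferons signal through JAK kinases to a complex with STAT2 and IRF9, which binds the interferon-stimulated response element (ISRE), while interferon gamma acts through the gamma-activated site (GAS). The genes that these factors switch on encode antiviral proteins, GTPases that attack the vacuoles of parasites and bacteria, and the machinery that loads peptides on class I molecules. In the liver, hepatocytes, Kupffer cells and endothelial cells all respond to interferon, and the genes are also transcribed at a low level without infection.

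The promoters of 8 members are shown because one or both response elements are visible in them and because the genes differ in how they changed between the arrays, from -0.81 to 0.78 on the log2 scale. RefSeq promoters, from 250 bases before to 50 bases after the start of a gene in the assembly GRCm38.p6, were given for 27 of the 37 members. Capitals mark matches to the ISRE core, GAAA and a second GAAA with any 2 bases between them (TTTC and TTTC when it lies on the other strand), and to the GAS core, TTCNNNGAA, which reads the same on both strands. Matches of the ISRE core that overlap each other run together. Each sequence is written 5′ to 3′ in the direction of its gene.
Isg15, chr4:156200846-156200925, minus strand: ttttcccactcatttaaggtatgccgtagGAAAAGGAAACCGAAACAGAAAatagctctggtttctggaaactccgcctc
Ifit1, chr19:34640759-34640838, plus strand: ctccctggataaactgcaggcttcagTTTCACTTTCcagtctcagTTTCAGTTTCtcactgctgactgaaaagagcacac
Ifit3, chr19:34583355-34583434, plus strand: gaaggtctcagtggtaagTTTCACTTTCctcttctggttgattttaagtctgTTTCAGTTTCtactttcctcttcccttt
Oas1a, chr5:120907525-120907628, minus strand: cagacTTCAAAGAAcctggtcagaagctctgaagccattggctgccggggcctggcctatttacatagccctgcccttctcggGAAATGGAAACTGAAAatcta
Igtp, chr11:58199481-58199560, plus strand: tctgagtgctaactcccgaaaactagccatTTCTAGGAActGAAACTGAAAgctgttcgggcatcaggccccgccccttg
Irf1, chr11:53769888-53769967, plus strand: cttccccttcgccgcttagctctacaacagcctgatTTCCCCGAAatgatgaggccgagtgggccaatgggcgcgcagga
Gbp2, chr3:142620569-142620648, plus strand: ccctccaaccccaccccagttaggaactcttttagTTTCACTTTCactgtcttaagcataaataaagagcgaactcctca
Cxcl10, chr5:92349058-92349137, minus strand: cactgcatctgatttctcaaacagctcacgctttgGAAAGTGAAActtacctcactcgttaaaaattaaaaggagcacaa

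Isg15 had 3 overlapping ISRE cores, starting 78, 72 and 66 bases before the start of the gene. Ifit1 had cores at 104 and 85 bases, and Ifit3 at 156 and 122 bases. In Oas1a a GAS core at 98 bases stood apart from a pair of overlapping ISRE cores at 20 and 14 bases, whereas in Igtp the GAS core at 45 bases lay directly beside the ISRE core at 34 bases. Irf1 had a GAS core at 90 bases and no ISRE core in the window. The ISRE core was present in 16 of the 27 members (59.3%) and in 1079 of 27025 genes with a promoter (3.99%). The GAS core was present in 6 of 27 members (22.2%) and in 9.55% of all genes. These are matches of letters in a short window, not measured sites of binding.

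Signals are given as normalized signal, which is the background-subtracted intensity of a probe after both arrays were brought to the same distribution by quantile normalization. Changes are log2 differences, feeding minus fasting, so that 1 is a doubling. A gene is represented by its brightest probe. The only error that these arrays hold is the spread of replicate spots of a probe on an array. From probes spotted 10 times, the SD of a feeding minus fasting difference was 0.10 (log2, 121 probes) in the brightest of 3 classes of signal with equal numbers of genes, which holds 23 members, and 0.14 (111 probes) in the middle class, which holds the other 12. It covers measurement on the array and leaves out mice, RNA and hybridization. It is the SD for 1 spot on each array. The same value was used for Igtp and Tap1, whose signals are means of 10 spots per array.

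All 35 genes were well above background on both arrays, with signals from 103 to 92706. Upon feeding, 12 genes were higher and 23 lower, with changes from -1.06 to 1.05 and a median of -0.19. Scaling the arrays by the 75th percentile gave 13 higher and 22 lower, and scaling by the median, which moved the median of all genes up by 0.11, gave 16 and 19. The median of all measured genes was 0.014. Of the 35 genes 65.7% were lower, against 50.1% of the 14515 genes that were well above background on both arrays. Relative to the replicate spots, 9 genes were higher and 16 lower by more than 2 SD, and 10 were within 2 SD. This cut was a change of 0.19 in the brightest class and 0.27 in the middle class. Over the genes well above background on both arrays, the SD of the change was 0.59. Passing the cut therefore does not set a member apart from other genes, and the share of all genes past it was not counted. The plot of signals by gene shows most pairs of points close together.

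**Figure D1:**
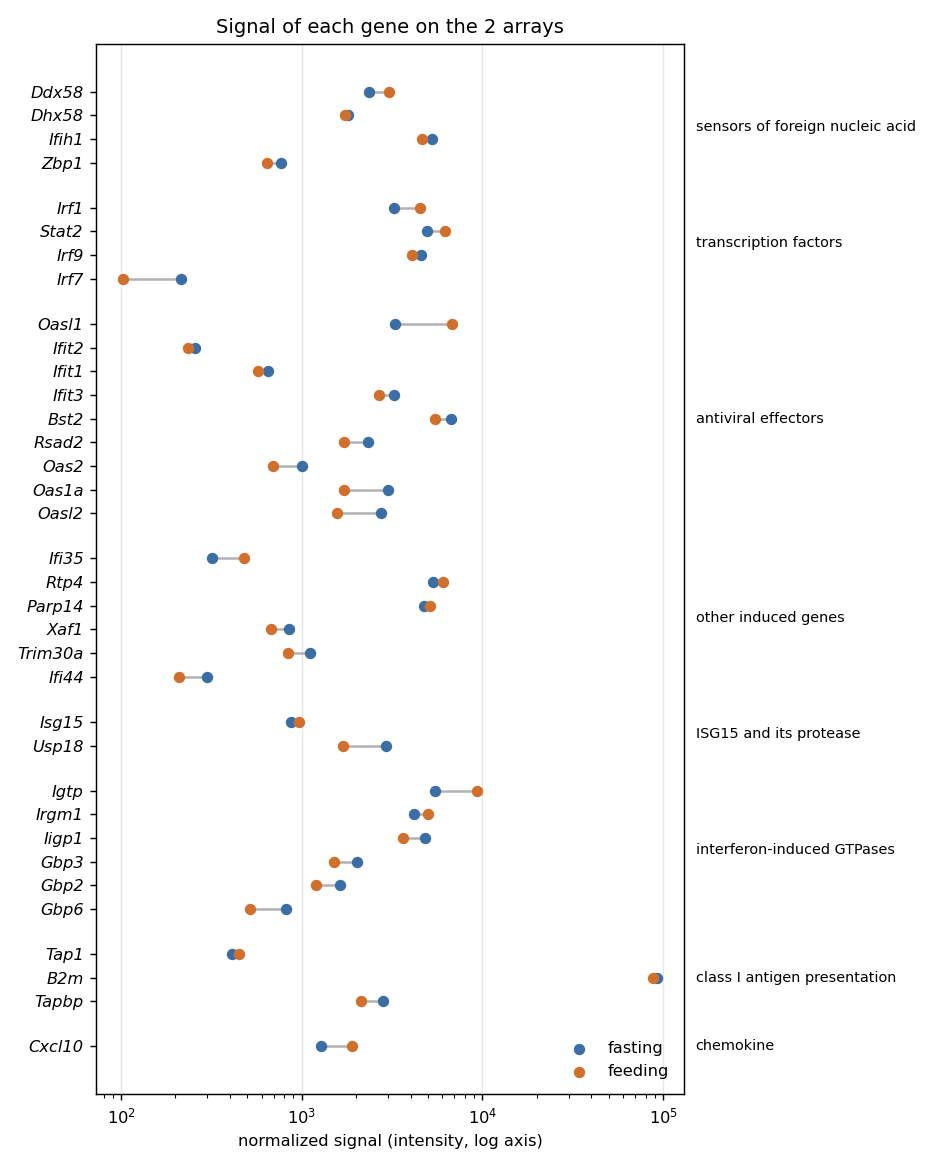
Normalized signal (horizontal log axis, intensity) of the 35 genes on the fasting array (blue) and the feeding array (orange), 1 value per array, grouped by role. The pairs furthest apart are Oasl1, from 3298 to 6813, and Irf7, from 214 to 103, while the points of B2m and Dhx58, whose directions turn when arrays are scaled by the median, nearly coincide.

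At the 2-fold threshold of the study's methods, 1 gene rose and 1 fell. Oasl1 was the 1 of 35 genes (2.86%) that rose, where 3.29% of all measured genes did. Irf7 was the 1 of 35 (2.86%) that fell, where 4.62% of all measured genes did. At 1.5-fold, 2 genes (5.71%), Oasl1 and Igtp, were higher against 10.5% of all measured genes. The 5 genes (14.3%) lower by at least 1.5-fold were Irf7, Oas1a, Oasl2, Usp18 and Gbp6, against 10.6% of all measured genes. Most of the set, 28 of 35 genes (80%), lay within 1.5-fold, as did 78.3% of the genes well above background on both arrays. At 2-fold and within 1.5-fold the shares are near the background of the whole array, and at 1.5-fold they rest on 2 and 5 genes.

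**Figure D2:**
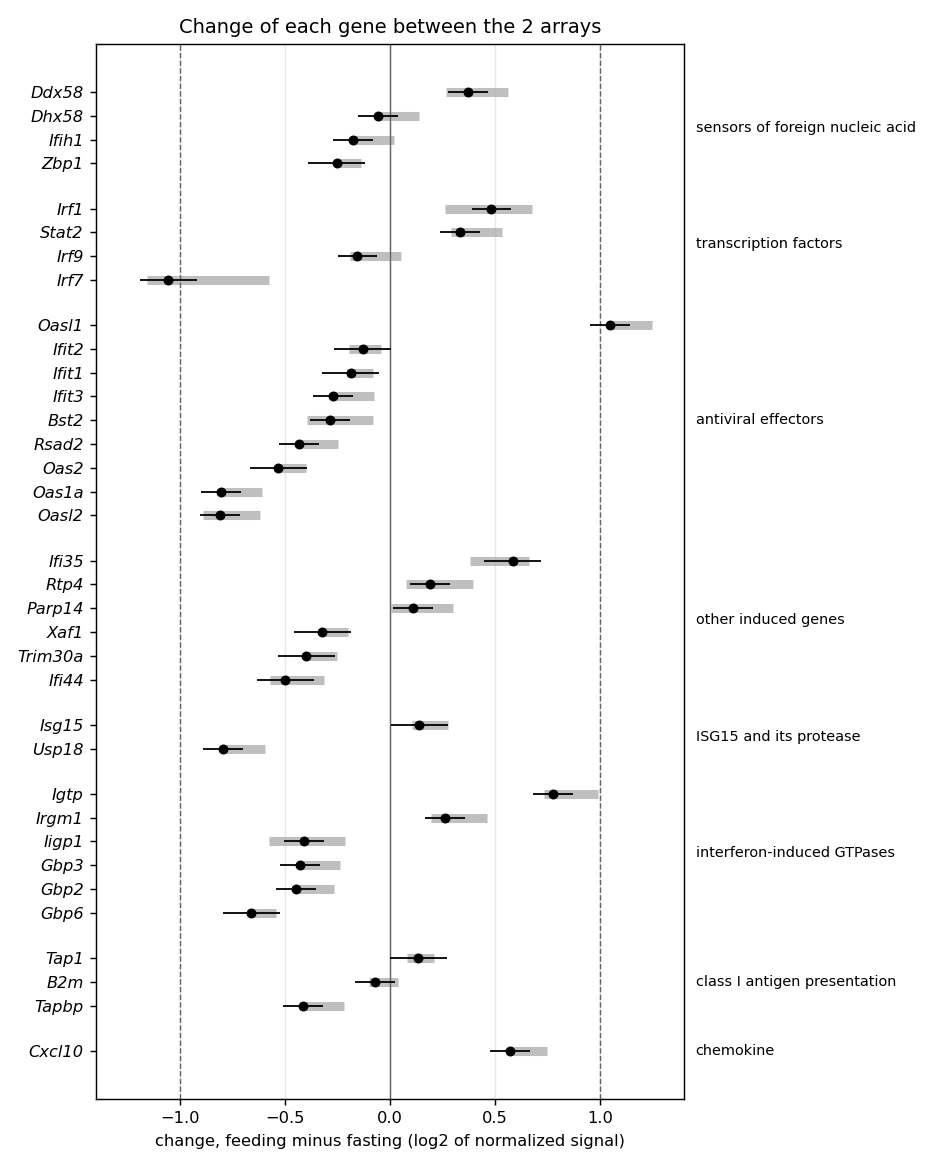
Change of each of the 35 genes (horizontal axis, log2 of normalized signal, feeding minus fasting). Points are the reported values, thin lines are ± 1 SD of a difference between replicate spots, grey bars span the settings tried for normalization, background correction, probes and outlier spots, and dashed lines mark 2-fold; Oasl1 lies beyond the right line in every setting, and the bar of Irf7 reaches to -0.58.

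Among the sensors of foreign nucleic acid, 1 of 4 genes was higher and 3 were lower, or 3 and 1 with scaling by the median, and none passed 2-fold. Ddx58, which encodes the RNA helicase RIG-I, gave signals of 2357 upon fasting and 3047 upon feeding, a change of 0.37. Its second probe, at 309.7 and 346, differed by 0.16 in the same direction. Ifih1, which encodes the related helicase MDA5, gave 5234 and 4627, a change of -0.18 that turned to 0.020 when arrays were scaled by the median, and its second probe gave 203 and 211, a change of 0.057. The probes of Ifih1 therefore disagreed in direction, and both changes were within 2 SD of replicate spots. Dhx58, which encodes LGP2, a helicase that tunes the other two, gave 1799.9 and 1729, a change of -0.058 that turned to 0.013 with scaling by the 75th percentile and to 0.14 with scaling by the median. Zbp1, a sensor of Z-form nucleic acid that can trigger cell death, gave 769 and 645, a change of -0.25, and its second probe differed by -0.17. Of the sensors, Ddx58 alone differed by more than 2 SD of replicate spots.

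The transcription factors of the pathway moved in opposite directions, 2 higher and 2 lower, or 3 and 1 with scaling by the median. Irf1, a factor induced by interferon gamma, gave 3231 upon fasting and 4516 upon feeding, a change of 0.48. A second probe of Irf1, for another transcript, was not well above background upon fasting (signals 9.48 and 9.76) and gives no fold. Stat2, a part of the complex that binds the ISRE, gave 4916 and 6190.0, a change of 0.33. Irf9, its DNA-binding partner, gave 4567 and 4099, a change of -0.16, which is within 2 SD of replicate spots and turned to 0.051 with scaling by the median. Irf7, the factor that amplifies the production of type I interferon, fell from 214 to 103, a change of -1.06 or 2.08-fold. Its signals lay nearest to the background among the members, and 3.96% of genes well above background on both arrays were lower by more. The local background around the members' spots was 22 to 46 upon fasting (median 31.5) and 19 to 26.5 upon feeding (median 22.5), and its part in the change of Irf7 was not tested. With another background correction (normexp) the change of Irf7 was -0.58 and did not pass 2-fold.

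Antiviral effectors were mostly lower upon feeding, 8 of 9 measured genes with a median of -0.29, and the one that was higher passed 2-fold. The counts were the same with scaling by the median, but the median was then -0.081. The OAS family makes or resembles enzymes that make 2′-5′ oligoadenylate, which switches on an RNA-degrading enzyme. Oas1a gave 2986 and 1708, a change of -0.81, and its second probe, at 267 and 189, differed by -0.49. Oas2 gave 1005 and 695, a change of -0.53. Oasl2 gave 2738 and 1558, a change of -0.81, close to that of Oas1a. Oasl1, a related protein that in mice restrains the translation of Irf7 mRNA, rose from 3298 to 6813, a change of 1.05 or 2.07-fold. Of the genes well above background on both arrays, 2.66% were higher by more, and the change was between 1.04 and 1.25 in every normalization and background correction tried. The 4 OAS genes thus did not move together, 3 being lower and 1 higher. Probes of the Oas1 genes may also detect near-identical copies, which was not tested.

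The IFIT proteins bind foreign RNA that lacks the cap of the host. Ifit1 gave 649 and 569.9, a change of -0.19. Ifit2 gave 256 and 234, a change of -0.13. Ifit3 gave 3222 and 2663, a change of -0.27. All 3 were lower upon feeding, and only Ifit3 differed by more than 2 SD of replicate spots. Ifit3 has a near-identical copy, Ifit3b, whose own probe differed by -0.30, so the signals of the pair are uncertain. Rsad2, which encodes viperin, an enzyme that makes a chain-terminating nucleotide, gave 2324 and 1719.8, a change of -0.43. Bst2, which encodes tetherin, a membrane protein that holds budding virus at the cell surface, gave 6691 and 5477, a change of -0.29. Both exceeded 2 SD of replicate spots and neither reached 1.5-fold.

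Other genes induced by interferon were split, 3 higher and 3 lower with a median of -0.11, which turned to 0.049 with scaling by the median. Ifi35, whose product pairs with the protein NMI, gave 320.4 and 480.2, a change of 0.58, just short of 1.5-fold. Rtp4, an antiviral zinc-finger protein that also chaperones receptors, gave 5294 and 6045, a change of 0.19. Parp14, an ADP-ribosyl transferase, gave 4733 and 5096, a change of 0.11. Of these 3, only Parp14 was within 2 SD of replicate spots. Xaf1, which promotes apoptosis, gave 848 and 677, a change of -0.32, and its second, dim probe, at 32.0 and 29.6, differed by -0.11. Ifi44 gave 298 and 210.4, a change of -0.50. Trim30a, which dampens inflammatory signaling, gave 1114 and 844, a change of -0.40, with near-identical copies in the same family. These 3 were lower by more than 2 SD of replicate spots.

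ISG15 is a ubiquitin-like protein that is attached to other proteins, and USP18 is the protease that removes it and also blocks the type I interferon receptor. Isg15 gave 877 upon fasting and 966 upon feeding, a change of 0.14, and its second probe, at 141 and 156, differed by 0.15. Usp18 gave 2940.4 and 1692, a change of -0.80 or 1.74-fold. Thus the modifier differed little, within 2 SD of replicate spots for its brighter probe, while the signal of its protease was lower.

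The interferon-induced GTPases were divided by gene, 2 higher and 4 lower, with a median of -0.42, or -0.23 with scaling by the median. Guanylate binding proteins coat the vacuoles and membranes of pathogens. Gbp2 gave 1633 and 1198, a change of -0.45. Gbp3 gave 2026 and 1506, a change of -0.43. Gbp6 gave 819.7 and 518, a change of -0.66, and its second probe differed by -0.48. All 3 were lower, by more than 2 SD of replicate spots, and the probes of Gbp6 may also detect the close copy Gbp10.

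The immunity-related GTPases act on the vacuoles of intracellular parasites. Igtp, also called Irgm3, gave 5445 and 9320.4, a change of 0.78 or 1.71-fold. Irgm1, a regulator of the same family, gave 4160.0 and 4979, a change of 0.26, and its second probe differed by 0.29. Iigp1, an effector of the family, gave 4822 and 3622, a change of -0.41, and its second probe differed by -0.54. Igtp and Irgm1 were thus higher and Iigp1 lower, and each of the probes kept its gene's direction. The third regulator, Irgm2, which was outside the set, gave 5176 and 5026, a change of -0.042 that turned with either scaling.

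Igtp and Tap1 were each measured by 10 spots per array, which shows the reading of a single probe directly. For Igtp, the lowest, median and highest normalized signals were 5109, 5447 and 5676 upon fasting (SD 0.044 on the log2 scale, n = 10 spots). Upon feeding they were 8824, 9299.7 and 10049 (SD 0.055, n = 10 spots). The spots of Igtp did not overlap between the arrays. For Tap1 they were 377, 405 and 445 upon fasting (SD 0.069, n = 10 spots) and 408, 454 and 483 upon feeding (SD 0.072, n = 10 spots). The spots of Tap1 overlapped, and before normalization their medians were 429 and 430.5. The share of all probes spotted 10 times whose spots do not overlap was not counted. The lack of overlap therefore does not set Igtp apart from other genes. Spots of an array are readings of the same hybridization and not replicates of a group.

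**Figure D3:**
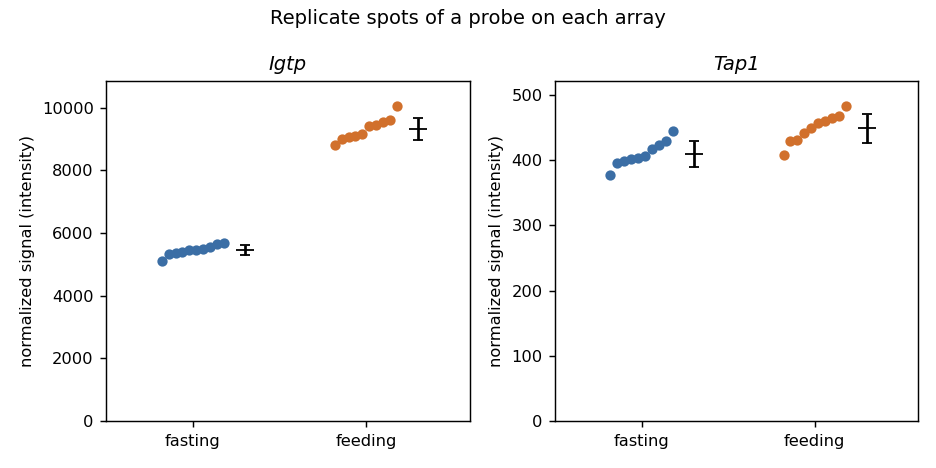
Normalized signal (vertical axis from 0, intensity) of the 10 replicate spots of the probes of Igtp (left) and Tap1 (right) on the fasting array (blue) and the feeding array (orange), each sorted by signal; black marks are the mean ± SD of the spots. The spots of Igtp do not overlap (highest fasting 5676, lowest feeding 8824) and those of Tap1 do (highest fasting 445, lowest feeding 408). The share of other probes whose spots do not overlap was not counted.

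In class I antigen presentation, 1 of 3 genes was higher and 2 were lower, or 2 and 1 with scaling by the median. Tap1, a subunit of the transporter that carries peptides into the endoplasmic reticulum, gave 409 and 449, a change of 0.13. Tapbp, which encodes tapasin and holds class I molecules at that transporter, gave 2834 and 2123, a change of -0.42. B2m, the light chain of every class I molecule, gave 92706 and 88075, a change of -0.074 that turned to 0.036 with scaling by the median. Of the 3, only Tapbp differed by more than 2 SD of replicate spots, a cut for single spots, whereas Tap1 was a mean of 10. Cxcl10, a chemokine that attracts activated T cells and is induced by interferon gamma, gave 1276 and 1893, a change of 0.57, just under 1.5-fold.

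Genes with and without the response elements in the promoter were found in both directions. Of the 16 genes with an ISRE core, 6 were higher and 10 lower, with changes from -0.81 to 0.78 and a median of -0.18. The 11 genes whose window held no ISRE core gave 4 higher and 7 lower, with changes from -1.06 to 1.05 and a median of -0.16. Among the 6 genes with a GAS core, 3 were higher and 3 lower, with a median of 0.18, and among the 21 without it 7 were higher and 14 lower, with a median of -0.19. The 3 genes with both cores in the window ran from Oas1a at -0.81 over Bst2 at -0.29 to Igtp at 0.78, so that Igtp and Oas1a, printed above with both cores, lay at the ends of this range. Oasl1 and Irf7, the genes past 2-fold, were among the 8 with neither core in the window.

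Genes upstream of the set were examined in lists of the same pathway. Of 11 interferon ligands, 6 were measured, 3 higher and 3 lower, or 2 and 4 with scaling by the 75th percentile. Interferon lambda (Ifnl3) gave 73.6 and 73.7, and interferon gamma (Ifng) 31.5 and 42.6, a change of 0.43. Both lay in the dimmest class of signal, where the SD of a difference between replicate spots was 0.44. With the normexp correction the change of Ifng was 0.069. Interferon beta (Ifnb1) was dim on both arrays. None of the 6 passed 2-fold by the values used. Ifna4 was dim upon fasting (signals 4.33 and 19.5), so its change of 0.44 is a lower bound. Whether Ifna4 passed 2-fold is therefore not known. Of 11 receptor and JAK-STAT genes, 4 were higher and 7 lower, with a median of -0.085 and none past 2-fold, while scaling by the median gave 6 higher and 5 lower. Jak1, the kinase shared by the receptors, gave 13226 and 15477, a change of 0.23, and the receptor chain Ifnar2 gave 9465 and 7664, a change of -0.30. Ifngr1, a chain of the receptor for interferon gamma that is named after its values were seen, gave 6162.5 and 3839.7, a change of -0.68.

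Of 14 genes of viral sensing and its adaptors, 7 were higher and 7 lower, with a median of -0.028 and none past 2-fold, while scaling by the median gave 9 and 5 with Mavs past 2-fold. Trim25, the ligase that activates RIG-I, gave 10835 and 10025, a change of -0.11 that turned to 0.12 with scaling by the median. Mavs, the mitochondrial adaptor of RIG-I and MDA5, gave 6622 and 11442, a change of 0.79. Among 9 measured negative regulators, 4 were higher and 5 lower, with a median of -0.20 that was -0.0020 with scaling by the median. None passed 2-fold, except Socs1 with scaling by the 75th percentile. Irf2, a repressor that opposes Irf1, gave 5625 and 4899, a change of -0.20, and the phosphatase gene Ptpn2 gave 2675 and 3151, a change of 0.24. The suppressors of cytokine signaling are named after their values were seen. Socs1 gave 88.9 and 45.9, a change of -0.95 that was -0.29 with the normexp correction. Socs1 lay in the dimmest class of signal, where the SD of a difference between replicate spots was 0.44. Socs3 gave 1825 and 951, a change of -0.94. Socs2 gave 1068 and 538, a change of -0.99. Cish, of the same family, gave 2194 and 2775, a change of 0.34, so that 3 of these 4 genes were lower.

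Other interferon-stimulated genes gave a median of -0.24, with 14 of 44 measured genes higher and 30 lower, and one of -0.072 with 18 higher and 26 lower when scaled by the median. Slfn2, a schlafen gene that keeps T cells and monocytes quiescent, was the 1 gene of this list past 2-fold. It fell from 265 to 48.8, a change of -2.44 or 5.43-fold, and by -1.08 with the normexp correction. Its mean over the arrays lay in the dimmest class of signal, where the SD of a difference between replicate spots was 0.44. In the rest of class I presentation, 10 of 22 genes were higher and 12 lower, with a median of -0.034 and none past 2-fold, whereas scaling by the median gave 17 higher and 5 lower with Calr past 2-fold. The class I heavy chain gene H2-K1 gave 90109.6 and 94648, a change of 0.071, while its second probe gave 43308 and 40063, a change of -0.11. H2-Q7 gave 67300.5 and 67878, a change of 0.012 that turned to -0.098 with the normexp correction, and near-identical class I genes may share probes. The probes of H2-K1 therefore disagreed in direction.

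Class II presentation, the display of peptides by macrophages, dendritic cells and B cells, was lower upon feeding in 9 of 10 measured genes, with a median of -0.43. With the other scalings and the normexp correction, 8 to 10 of the 10 were lower, and the median was -0.29 with scaling by the median. Among the 9, Ciita, at 39.9 and 39.1, differed by -0.030, and H2-Oa, at 62.2 and 56.1, by -0.15. Both lay in the dimmest class of signal, as did H2-Ob, the 1 gene that was higher (0.066). In that class the SD of a difference between replicate spots was 0.44. H2-Aa, which encodes an alpha chain of class II, was the 1 gene past 2-fold. It fell from 1347 to 439.5, a change of -1.62 or 3.06-fold. The other chains, named after their values were seen, differed by less than 2-fold. H2-Eb1 gave 12859 and 7149, a change of -0.85. H2-Ab1 gave 25362 and 16999.8, a change of -0.58. Cd74, the invariant chain, gave 12051 and 7405, a change of -0.70. No set test was run, and the values above are a description of 2 arrays.

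**Figure D4:**
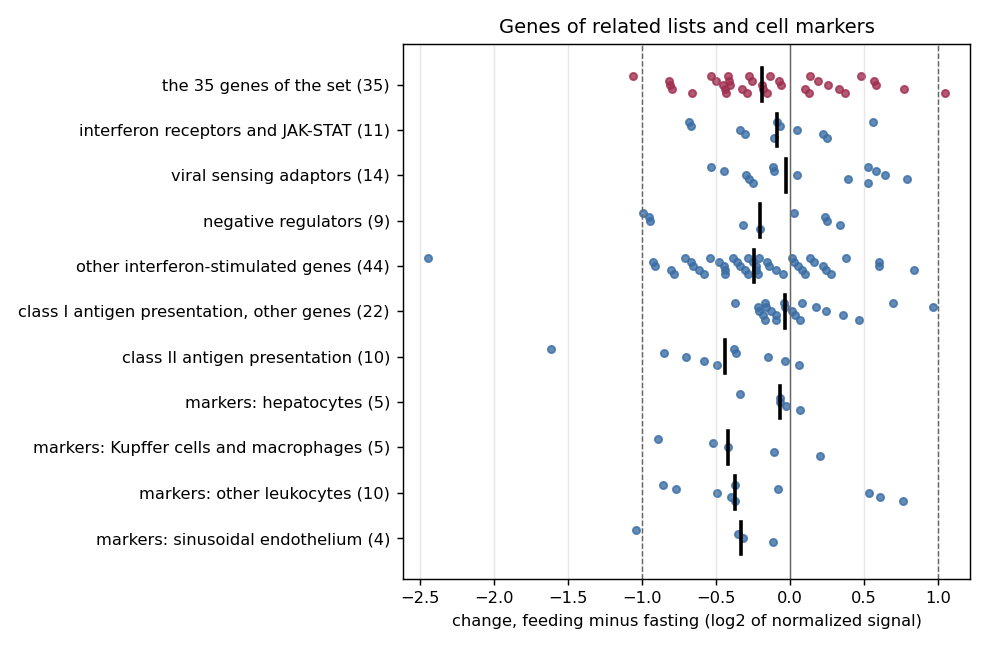
Change (horizontal axis, log2 of normalized signal, feeding minus fasting) of each measured gene of the set (red) and of related lists and cell markers (blue), with the number of genes plotted in parentheses; black bars are medians and dashed lines mark 2-fold. Medians are -0.43 for class II, -0.41 for markers of Kupffer cells and macrophages and -0.37 for other leukocytes, the order of the last 2 turning with either scaling, against -0.19 for the 35 genes, and the point furthest left is Slfn2 at -2.44.

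Markers of liver cell types were read beside the set. The hepatocyte markers Alb, at 151264 and 144433, and Ttr, at 71216 and 70033, fit the labelled tissue. Of 5 hepatocyte markers, 4 were lower and 1 higher, or 1 lower and 4 higher with scaling by the median, and their summed signal was 475271 upon fasting and 456025 upon feeding. Of 5 measured markers of Kupffer cells and macrophages, 4 were lower and 1 higher (3 and 2 with scaling by the median), with a median of -0.41 and a summed signal of 58861 upon fasting and 41821 upon feeding. Adgre1, which encodes F4/80, gave 12987 and 7021, a change of -0.89. Clec4f, specific to Kupffer cells, gave 7657 and 5744, a change of -0.41. Csf1r, the receptor of macrophage colony-stimulating factor, gave 28722 and 20042, a change of -0.52. Among the other two, Vsig4 gave 8571 and 7948, a change of -0.11 that turned to 0.096 with scaling by the median, and Marco gave 925 and 1065, a change of 0.20. Thus most macrophage markers and class II genes were lower on the same array, as were most effectors of the set.

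Of 12 markers of other leukocytes, 11 were measured and 10 gave a change, 3 higher and 7 lower, with a median of -0.37 and a summed signal of 18606 and 17224. With either scaling and with the normexp correction 4 were higher and 6 lower, and with the latter the median was -0.14. The brightest of these markers was Siglech, at 11039.5 and 10466.5, a change of -0.077 that turned with either scaling and with the normexp correction. This probe made up most of the summed signal on each array. A second probe of Siglech was far dimmer, at 40.8 and 31.0, a change of -0.40. The next brightest marker was Nkg7, at 4266 and 3239, a change of -0.40. S100a9 and Itgax are named because their changes were the highest and lowest of the list. The neutrophil gene S100a9 gave 907 and 1542, a change of 0.77, whereas Itgax, a marker of dendritic cells, gave 619 and 341, a change of -0.86. All 4 markers of sinusoidal endothelium were lower (3 of 4 with scaling by the median), with a median of -0.33 and a summed signal of 20552 and 16578, and Pecam1 fell from 469.6 to 229, a change of -1.04 that was -0.79 with the normexp correction and -0.98 with scaling by the median. Cd68 and Ly6c2 had no matched probe, and Cd79a, dim upon fasting, gave no fold. The part of these cell types in the changes of the set was not tested. In bulk RNA, fewer cells of a type and less RNA per cell cannot be told apart.

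The arrays themselves differed in background. Among 44397 spots per array, 1377 of them controls, saturation was seen in 0. Spots well above background made up 63.1% upon fasting and 72.3% upon feeding. The median local background was 29.5 upon fasting (5th to 95th percentile, 22 to 45) and 22 upon feeding (19 to 25). The lowest normalized signal of a member's brightest probe was 103. It is a value after background subtraction, so it is not on the scale of these local backgrounds. Some second probes of members were dimmer.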

How the data were processed

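Liver RNA of fasting and feeding mice was measured on 1 array per group. The authors read the scans with Agilent Feature Extraction 11.0.1.1. Per the file headers, each spot has an intensity from which background was subtracted, and the arrays were not normalized to each other at that stage. The series' own table of values, also deposited, equals the local background for 44397 of 44397 spots (within a relative difference of 1e-06) and was not used.

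Control and outlier spots were left out, log2 intensities were averaged over the spots of a probe and quantile normalized (Python 3.11.15, numpy 2.4.6, pandas 2.3.3). A probe counted as well above background where at least 50% of its spots were flagged so. Transcripts were named through RefSeq (GRCm38.p6), which matched 27218 of 39402 probes (69.1%). The array was designed on an older assembly, so no probe coordinates are given. Where a gene had several probes, the one brightest over both arrays stood for it, and a probe dim on 1 array gave a lower bound. Calls were made at 2-fold, the threshold of the study's methods. The procedure was tested on simulated data.

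Members and lists were chosen with earlier results of these data known. Every member is named, and of each related list the genes past 2-fold (at most 4) or otherwise the 2 brightest. A gene of these lists is not reported here. Alternatives were to scale each array by its 75th percentile or median, normexp (offset 50, limma 3.58.1, R 4.3.3) on the median spot signal, the mean of a gene's probes, outlier spots kept, other filters on dim probes, no bound, and thresholds of 1.5-fold and 3-fold. The number of arrays limits the precision.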

Additional observations from a re-analysis of the deposited data

How the results depend on the processing

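Oasl1 remained the 1 member past 2-fold in the higher direction under every alternative that kept the 2-fold threshold, and Irf7 the 1 in the lower direction under all but the normexp correction, where 0 members were lower by 2-fold. At 1.5-fold 2 members were higher and 5 lower, and at 3-fold 0 and 0. The median change of the members was -0.076 when arrays were scaled by their median, which moved the median of all genes by 0.11. Relative to all genes the members' median was -0.20 with either normalization. Dhx58 changed sign when scaled by the 75th percentile, and B2m, Dhx58, Ifih1 and Irf9 when scaled by the median. Of the related lists, 2 genes passed 2-fold as reported, 5 with scaling by the 75th percentile (with Socs1, Oas3 and Calr), 5 with scaling by the median (with Mavs, Dtx3l and Calr) and 24 at 1.5-fold. Over all genes, 537 were higher and 756 lower by 2-fold as reported (41.5% higher), 717 and 649 with scaling by the median (52.5% higher), and 215 and 312 with normexp. The causes were not tested. No paired analysis was possible because each group had 1 array. In the dimmest of 3 classes of signal, where replicate spots gave an SD of 0.44 for a difference, there were 0 members.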

Other observations

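Relatives of the members were described by gene family, chosen after their values were seen. Each family count also includes members or genes of the related lists given above, so it partly repeats those values. In the OAS family, 8 of 9 measured genes were lower upon feeding, with a median of -0.67, and Oasl1 was the 1 that was higher. Oas1a, Oas2, Oasl1 and Oasl2 among them are members of the set, and Oas3 is from a related list. Of the genes well above background on both arrays, 50.1% were lower. Oas1d, which was outside the set, fell from 85.2 to 20.8, a change of -2.03, but with the normexp correction it gave -0.53 and did not pass 2-fold. Oas1d, Oas1e and Oas3 lay in the dimmest class of signal, where the SD of a difference between replicate spots was 0.44. Oas1f gave 964 and 604, a change of -0.67. Near-identical Oas1 copies may share probes. In the p200 family, which includes sensors of DNA, 8 of 9 measured genes were lower with a median of -0.32. Its members Ifi207, at 3536 and 1778, and Ifi204, at 7021 and 4455, differed by -0.99 and -0.66. None of the p200 genes passed 2-fold. In both families the count of 8 held with either scaling and with the normexp correction, but the medians moved. With the normexp correction they were -0.52 for OAS and -0.15 for p200, and with scaling by the median -0.55 and -0.22. Of the p200 genes, Aim2, Ifi213 and Ifi214 were in the dimmest class of signal.

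Schlafen genes did not share the change of Slfn2 in size. Of 6 measured, 4 were lower and 2 higher. Slfn1 gave 43.8 and 28.2, a change of -0.63, while Slfn9 gave 613 and 723, a change of 0.24. The change of Slfn1 was -0.17 with the normexp correction. Slfn1 lay in the dimmest class of signal, where the SD of a difference between replicate spots was 0.44. Among 10 guanylate binding genes, 4 were higher and 6 lower, with a median of -0.34, and among 7 measured immunity-related GTPases, 3 were higher and 4 lower, or 4 and 3 with either scaling, with a median of -0.042. No family was tested.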
